A study of Mus musculus with 2 samples.

Results

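The genes of oxidative phosphorylation were examined in dermal cells of the Pdgfra lineage from untreated (UT) skin and from skin treated with imiquimod (IMQ), a Toll-like receptor agonist that induces psoriasis-like inflammation in mice. Members were taken by symbol: every gene starting with mt-Nd, mt-Co, mt-Cytb or mt-Atp among the mitochondrial genes, and with Nduf, Uqcr, Cox4 to Cox8 or Atp5 among the nuclear genes. This gave 102 of the 31053 genes listed, of which 13 are encoded in the mitochondrial genome and 89 in the nucleus. The 89 nuclear entries carry 88 symbols, since Atp5o is listed under 2 identifiers, 1 of which held no count. Both groups were C57BL/6 mice of the genotype PdgfraDreER-tdTomato, 8 weeks old, in which tamoxifen lets the Dre recombinase, driven from Pdgfra, switch on tdTomato. The UT group had no treatment and the IMQ group had 7 days of imiquimod. Live dermal cells that were tdTomato+ and CD45- were sorted and profiled with the Chromium 3′ kit, with 1 library per group. Without replicates no difference below could be tested against variation between mice. Every interval is a 95% interval that covers counting error only.

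Oxidative phosphorylation couples the passage of electrons through complexes I, III and IV of the inner mitochondrial membrane to the pumping of protons, and complex V, the ATP synthase, uses the proton gradient to make ATP. Each of these complexes is built from subunits of both genomes, the catalytic core partly from mitochondrial DNA and the many accessory subunits from nuclear genes. Mitochondrial mRNAs are cut from long transcripts of each DNA strand, carry poly(A) tails and are captured by 3′ single-cell kits together with nuclear mRNAs, and their share of a cell's counts is widely used as a measure of cell quality.

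Barcodes with 200 to 5000 detected genes were kept, with no limit on the mitochondrial share. This left 1349 of 1415 UT barcodes and 1425 of 5047 IMQ barcodes, with medians of 708 and 698 unique molecular identifiers (UMIs, counted once per captured molecule). The median number of detected genes was 369 in UT and 267 in IMQ, so IMQ barcodes held fewer genes at a like depth. Of the IMQ barcodes, 3621 had fewer than 200 genes, against 64 of the UT barcodes. The study counted more filtered IMQ cells than the deposited IMQ matrix holds barcodes. At least 3 of 7 fibroblast markers had a UMI in 1266 UT and 1409 IMQ barcodes, and 1 barcode sequence occurred in both libraries. Summed fibroblast markers stood at 106186 nuclear CPM (UMIs scaled to a total of 1000000 over nuclear genes) in UT and 176028 in IMQ. Markers of other cells were sparse and unequal between the libraries: keratinocyte markers came to 1910 nuclear CPM in UT and 22.4 in IMQ, and myeloid markers to 1815 and 376. Endothelial markers came to 41.5 and 84.1, mural and smooth muscle markers to 181 and 81.3, lymphoid markers to 88.4 and 9.34, melanocyte and Schwann cell markers to 26.9 and 73.8, and erythrocyte markers to 9 UMIs and 0. Some of these sums rested on single genes. Des gave 142 of the 235 mural and smooth muscle UMIs in UT and 11 of 87 in IMQ. Mlana gave 24 of the 35 melanocyte and Schwann cell UMIs in UT and 74 of 79 in IMQ. Of 8 myeloid markers with at least 20 UMIs, 6 were lower in IMQ. The other 2, C1qa and C1qb, had 11 and 12 UMIs in UT and 39 and 25 in IMQ. The part of these other cells in the ratios below was not tested. Gm42418, a transcript that overlaps a ribosomal RNA repeat, took 1.58% of nuclear UMIs in UT and 15.8% in IMQ. The counts came from Cell Ranger 3.0.0 for UT and 3.1.0 for IMQ, so the treatment, the library and the software version cannot be told apart.

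The mitochondrial-encoded members were higher in IMQ. They held 45070 UMIs in UT, or 3.35% of all UMIs, and 83656 UMIs in IMQ, or 7.25%. The level in CPM, which scales UMIs to a total of 1000000 over all genes, was thus 2.16-fold higher in IMQ, which gave a log2 ratio of 1.11 (1.10 to 1.13). The share in a single barcode centred on 3.17% in UT and on 6.23% in IMQ (medians), with quartiles of 1.80% and 4.80% in UT and 3.05% and 10.4% in IMQ, so the ranges of both libraries overlapped widely. The study kept only barcodes with at most 5% mitochondrial UMIs, a limit that 304 UT and 854 IMQ barcodes exceeded. Under that limit, which caps the measured share itself, the log2 ratio was -0.013.

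All 13 mitochondrial genes had log2 ratios above 0, though that of mt-Nd4l was 0.01 with an interval that held 0. At least 2-fold higher were 6 of the 13, where 2.26% of all genes with 20 or more UMIs were. The median gene itself had a log2 ratio of -0.71 on this scale, and relative to it 12 of the 13 were at least 2-fold higher, the exception being mt-Nd4l. The share of all genes past 2-fold relative to this median gene was not computed. Among nuclear genes, in nuclear CPM and relative to their own median gene, 8.97% were at least 2-fold higher. Of the complex I subunits, mt-Nd1 stood at 1971 CPM in UT and 3806 in IMQ, mt-Nd2 at 2594 and 5530, and mt-Nd3 at 457 and 2145. The last of these, a small core subunit of the membrane arm, had a log2 ratio of 2.23 (2.10 to 2.36), far above the other complex I genes. The levels of mt-Nd4 were 3089 in UT and 4053 in IMQ, those of mt-Nd4l 595 and 600, those of mt-Nd5 610 and 958 and those of mt-Nd6 39.4 and 67.6. Thus the 7 complex I genes did not move by a common factor, and their sum had a log2 ratio of 0.87 (0.84 to 0.91).

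The genes of the other complexes lay closer together. Cytochrome b of complex III, mt-Cytb, stood at 3072 CPM in UT and 6647 in IMQ, which gave a log2 ratio of 1.11 (1.06 to 1.17). The core subunits of cytochrome c oxidase stood at 5853 and 10140 for mt-Co1, 4427 and 10080 for mt-Co2, and 4673 and 13510 for mt-Co3, with log2 ratios of 0.79 (0.75 to 0.83), 1.19 (1.14 to 1.23) and 1.53 (1.49 to 1.57). In complex V, mt-Atp6, the subunit that forms part of the proton channel, stood at 5811 and 14500, a log2 ratio of 1.32 (1.28 to 1.36), and mt-Atp8 at 309 and 461, a log2 ratio of 0.58 (0.39 to 0.76). The intervals of mt-Co1, mt-Co2 and mt-Co3 did not overlap each other, although these 3 proteins belong to 1 enzyme.

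**Figure D1:**
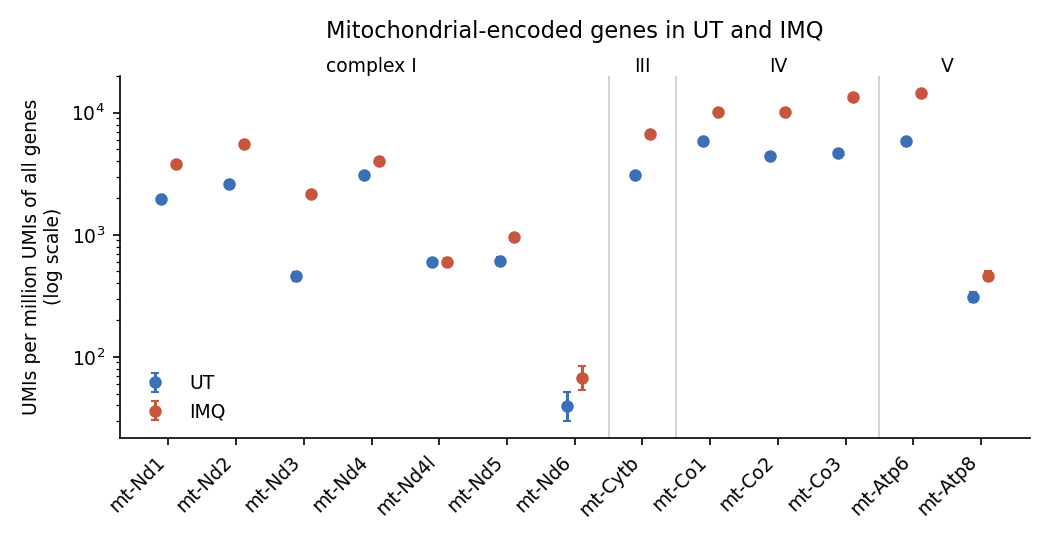
Level of each mitochondrial-encoded gene in CPM (log scale) in UT and IMQ, ordered by complex; points are sums over the kept barcodes of 1 library and bars are 95% Poisson intervals, most of them smaller than the points. The IMQ point lies clearly above the UT point for every gene but mt-Nd4l, where the levels of 595 and 600 have overlapping intervals, and the widest gap is at mt-Nd3.

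The mix of mitochondrial mRNAs also differed, which the overall share does not determine. Of mitochondrial UMIs, mt-Nd3 took 1.36% in UT and 2.96% in IMQ, mt-Co3 13.9% and 18.6%, and mt-Atp6 17.3% and 20.001%. Lower shares in IMQ were found for mt-Nd4l, 1.78% in UT and 0.827% in IMQ, and for mt-Nd4, 9.22% and 5.59%. They were also lower for mt-Co1, 17.5% and 14.0%, for mt-Nd5, 1.82% and 1.32%, and for mt-Atp8, 0.923% and 0.636%. The shares of mt-Cytb, 9.17% in both, and of mt-Nd2, 7.74% and 7.63%, were close, with log2 ratios of -0.00026 (-0.055 to 0.055) and -0.022 (-0.082 to 0.038). Since shares add up to a fixed total, a higher share of some genes lowers the others.

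The difference in mix was present at low and at high mitochondrial share. Over the 4 UT bins and 5 IMQ bins of mitochondrial share that held at least 20 barcodes, the share of mt-Nd3 lay between 1.22% and 1.40% in UT and between 2.56% and 3.16% in IMQ. For mt-Co3 the bins spanned 13.4% to 14.2% in UT and 18.6% to 19.0% in IMQ, and for mt-Nd4 8.24% to 9.74% and 4.94% to 5.74%. In this way the bins of the libraries did not overlap for 8 of the 13 genes, 3 higher and 5 lower in IMQ, and overlapped for the other 5. The share of nuclear genes whose bins would lie apart by the same rule is not given here, so this count has no background. Barcodes left out for having fewer than 200 genes gave a similar picture, with mt-Nd3 at 1.26% in UT and 3.07% in IMQ, mt-Co3 at 13.02% and 18.7%, and mt-Nd4 at 9.62% and 5.76%. The exception among the 8 was mt-Atp8, at 0.609% (0.334% to 1.02%) and 0.663% (0.622% to 0.705%). Across the 13 genes the log2 ratios of shares in the kept and in the left-out barcodes had a Spearman correlation of 0.80. Bins and left-out barcodes belong to the same library and are no replicates.

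Pairs of mitochondrial genes share an mRNA, and the sequences below show where their reading frames overlap, because a read there cannot be given to 1 gene. Capitals mark the bases that both genes claim, with 12 bases of flank in lower case, on the + strand of GRCm38, the build of all coordinates here. The overlap of mt-Atp8 (chrM:7766-7969) and mt-Atp6 (chrM:7927-8607) covers 43 bases, and that of mt-Nd4l (chrM:9877-10173) and mt-Nd4 (chrM:10167-11544) covers 7.
mt-Atp8/mt-Atp6, chrM:7915-7981: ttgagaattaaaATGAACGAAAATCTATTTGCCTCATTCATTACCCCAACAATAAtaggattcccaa
mt-Nd4l/mt-Nd4, chrM:10155-10185: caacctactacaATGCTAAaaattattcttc
In both runs the capitals open with the ATG start of the downstream gene and close with the stop of the upstream gene. The upstream members, mt-Atp8 and mt-Nd4l, are the ones whose own 3′ ends lie inside the shared mRNA, so their counts are uncertain. Summed over the mRNA, mt-Nd4l and mt-Nd4 took 10.998% of mitochondrial UMIs in UT and 6.42% in IMQ, and mt-Atp8 and mt-Atp6 took 18.3% and 20.6%. The gene mt-Nd6 (chrM:13552-14070) is read from the other strand and overlaps the end of mt-Nd5 (chrM:11742-13565).

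With each shared mRNA taken as 1, the log2 ratio of shares fell with the annotated length of the mRNA. Over the 10 mRNAs of the heavy strand, from mt-Nd3 with 348 bases to mt-Nd5 with 1824 bases, the Spearman correlation was -0.90, and with mt-Nd6 added it was -0.67 over 11. Without mt-Nd3 and mt-Nd6 it was -0.87 over 9. Taken gene by gene it was -0.05 over 13 genes, with the short genes mt-Nd4l at -1.10 and mt-Atp8 at -0.54 far below mt-Nd3 at 1.12. The short gene mt-Nd6 lay at -0.33 (-0.86 to 0.20), an interval that held the value of mt-Atp8. The relation was noticed in these data, and the points share the same 2 libraries. For nuclear genes the length was that of the longest annotated transcript, which need not be the mRNA captured. On this measure the Spearman correlation between length and log2 ratio was -0.08 over 6960 genes. It was -0.04 over the 78 nuclear-encoded members counted. Because the measures of length differ, these values cannot decide whether nuclear genes hold a like relation.

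**Figure D2:**
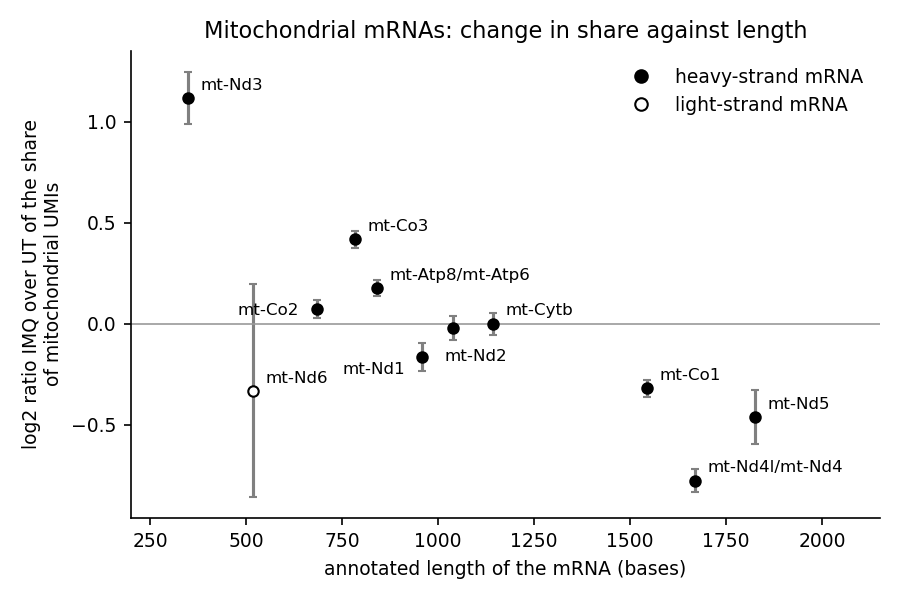
Log2 ratio IMQ over UT of each mRNA's share of mitochondrial UMIs against its annotated length in bases, with 95% counting intervals; filled points are mRNAs of the heavy strand and the open point is mt-Nd6 of the light strand. The shortest mRNA, mt-Nd3, lies highest at 1.12, and the 3 longest lie lowest among the filled points, between -0.78 and -0.32.

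Summed over the kept barcodes, the nuclear-encoded members were lower in IMQ by about as much as the typical nuclear gene. Scalings centred on that gene took this direction away. Their levels are in nuclear CPM, so that the mitochondrial share does not enter them. The 89 members summed to 24906 (24636 to 25179) in UT and 15869 (15631 to 16109) in IMQ, which gave a log2 ratio of -0.65 (-0.68 to -0.62). The median nuclear gene with at least 20 UMIs over both libraries had a log2 ratio of -0.66, with 1 CPM added to each library, over 6964 genes. The members' sum relative to it was thus 0.0074. Scaling by TMM gave a log2 ratio of -0.026 for the sum and the median of ratios gave 0.0017. Leaving ribosomal protein genes, Gm42418 and its partner AY036118 out of the total gave -0.37. Thus the direction of the sum depends on the scaling. The match with the typical gene was lost in barcodes with at least 500 genes, 346 in UT and 67 in IMQ. There the sum had a log2 ratio of -0.60 and the median gene -0.27.

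Of the 89 nuclear members, 78 had at least 20 UMIs, 11 had fewer, and 4 had none in UT. The median log2 ratio of the 78 was -0.77. In IMQ 74 of them lay below 0, as did 5701 of the 6964 nuclear genes. Below the median nuclear gene lay 49 of the 78, and 3480 of the 6964. At least 2-fold lower were 22 of the 78, or 28.2%, where 30.3% of all nuclear genes were, and 0 were at least 2-fold higher, where 2.4% were. Relative to the median gene 2 members were at least 2-fold lower, where 9.2% of all genes were, and 2 were at least 2-fold higher, where 8.97% were. The 2 lower were Atp5g1, and Ndufaf4, a complex I assembly factor with 17 UMIs in UT and 3 in IMQ, while the 2 higher were Cox7a2l and Ndufa6. Ndufaf4 and the other members named beside a small count were picked after their values were seen.

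The NADH dehydrogenase, complex I, has the most nuclear members. Its 36 genes summed to 7311 nuclear CPM in UT and 4414 in IMQ, which gave a log2 ratio of -0.73 (-0.78 to -0.68), and 12 were at least 2-fold lower, or 33.3% beside the 30.3% of all nuclear genes. Relative to the median gene 0 of the 36 were, where 9.2% of all nuclear genes were. Ndufv3 (chr17:31520115-31531331), a subunit of the flavoprotein part that takes electrons from NADH, stood at 271 in UT and 95.3 in IMQ, which gave a log2 ratio of -1.51 (-1.84 to -1.18), the lowest of the 36. Ndufa13, also known as GRIM-19, stood at 644 and 386, a log2 ratio of -0.74 (-0.91 to -0.57). At the other end, Ndufa6 (chr15:82350140-82354322), an accessory subunit, stood at 227 and 308, a log2 ratio of 0.44 (0.21 to 0.67), the only complex I gene of nuclear origin above 0. Ndufb5 stood at 189 and 178, with an interval of -0.37 to 0.19 that held 0. Ndufb5 overlaps Mrpl47 on the other strand, and Ndufa13 overlaps Yjefn3 on its own strand and Tssk6 on the other.

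The assembly factors of complex I, named Ndufaf, help to build the enzyme and are not part of it. Their 8 genes summed to 263 UMIs in UT and 99 in IMQ, which gave a log2 ratio of -1.13 (-1.48 to -0.79). At least 2-fold lower were all 5 with at least 20 UMIs, where 30.3% of all nuclear genes were. Relative to the median gene 1 of the 5 was, where 9.2% of all nuclear genes were. Ndufaf2, an assembly chaperone, gave 71 UMIs in UT and 24 in IMQ, which gave a log2 ratio of -1.28 (-2.02 to -0.60). With so few UMIs the interval of Ndufaf2 held the log2 ratio of the median nuclear gene.

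Complex III, the cytochrome bc1 complex, held both some of the highest and one of the lowest ratios. Its 8 genes summed to 2014 nuclear CPM in UT and 1403 in IMQ, which gave a log2 ratio of -0.52 (-0.61 to -0.43). Uqcrh, the hinge protein that binds cytochrome c1, stood at 553 and 601, a log2 ratio of 0.12 (-0.04 to 0.28). Uqcrfs1, the Rieske iron-sulfur protein, stood at 60.8 and 72.9, a log2 ratio of 0.26 (-0.21 to 0.73). Both intervals held 0, so neither gene could be placed above or below its UT level at this depth. In contrast, Uqcrq stood at 271 and 111, a log2 ratio of -1.29 (-1.60 to -0.98). It was the 1 of the 8 at least 2-fold lower, or 12.5%, a smaller share than the 30.3% of all nuclear genes.

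Complex IV, cytochrome c oxidase, included the gene with the most nuclear member UMIs. Its 20 entries, 14 with at least 20 UMIs, summed to 8668 in UT and 5966 in IMQ, which gave a log2 ratio of -0.54 (-0.58 to -0.49). Cox6c stood at 2070 and 1288 nuclear CPM, a log2 ratio of -0.68 (-0.78 to -0.59), close to the median gene. Cox4i1, the regulatory subunit IV, stood at 1033 and 790, a log2 ratio of -0.39 (-0.51 to -0.26), Cox7c at 922 and 793, a log2 ratio of -0.22 (-0.35 to -0.09), and Cox8a at 988 and 550, a log2 ratio of -0.84 (-0.99 to -0.70). These 3 subunits of 1 enzyme thus moved by unequal amounts, with Cox8a below the median gene and both others above it. Cox7b stood at 420 and 169, a log2 ratio of -1.31 (-1.56 to -1.07). It was the 1 of the 14 at least 2-fold lower, or 7.14%, a smaller share than the 30.3% of all nuclear genes. Cox4i1 overlaps Gm20388 on its own strand and Emc8 on the other, and Cox6c overlaps Vps13b on the other.

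Cox7a2l (chr17:83501918-83517330), a relative of the subunit gene Cox7a2, had the highest ratio among nuclear members with at least 50 UMIs. It stood at 278 (250 to 308) nuclear CPM in UT, from 361 UMIs in 263 barcodes, and at 534 (492 to 580) in IMQ, from 572 UMIs in 423 barcodes. The log2 ratio was 0.94 (0.75 to 1.14), or 1.60 relative to the median gene, and it was 0.95 without the barcode with the most Cox7a2l UMIs in each library. Under the 11 alternatives run for single genes it stayed above 0, between 0.15 and 1.60. Its paralog Cox7a2, a subunit of complex IV, stood at 371 and 226, a log2 ratio of -0.71 (-0.94 to -0.49).

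Complex V, the ATP synthase, had 17 entries that summed to 6711 in UT and 3993 in IMQ, which gave a log2 ratio of -0.75 (-0.80 to -0.70). Atp5g1 (chr11:96068852-96075670), 1 of the genes for the c subunit of the rotor ring, had the lowest ratio among members with at least 50 UMIs, with 318 nuclear CPM in UT and 97.2 in IMQ, which gave a log2 ratio of -1.71 (-2.03 to -1.40). All 15 members of complex V with at least 20 UMIs lay below 0, as did 5701 of the 6964 nuclear genes, and 3 of them, or 20%, were at least 2-fold lower beside 30.3% of all nuclear genes. Atp5e, the epsilon subunit, stood at 1382 and 724, a log2 ratio of -0.93 (-1.06 to -0.81), Atp5h at 672 and 334, a log2 ratio of -1.01 (-1.19 to -0.83), and Atp5l, the g subunit, at 616 and 422, a log2 ratio of -0.54 (-0.71 to -0.38). Near-identical copies of several of these genes exist as pseudogenes, and how shared reads were assigned is not given in the sources used here.

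**Figure D3:**
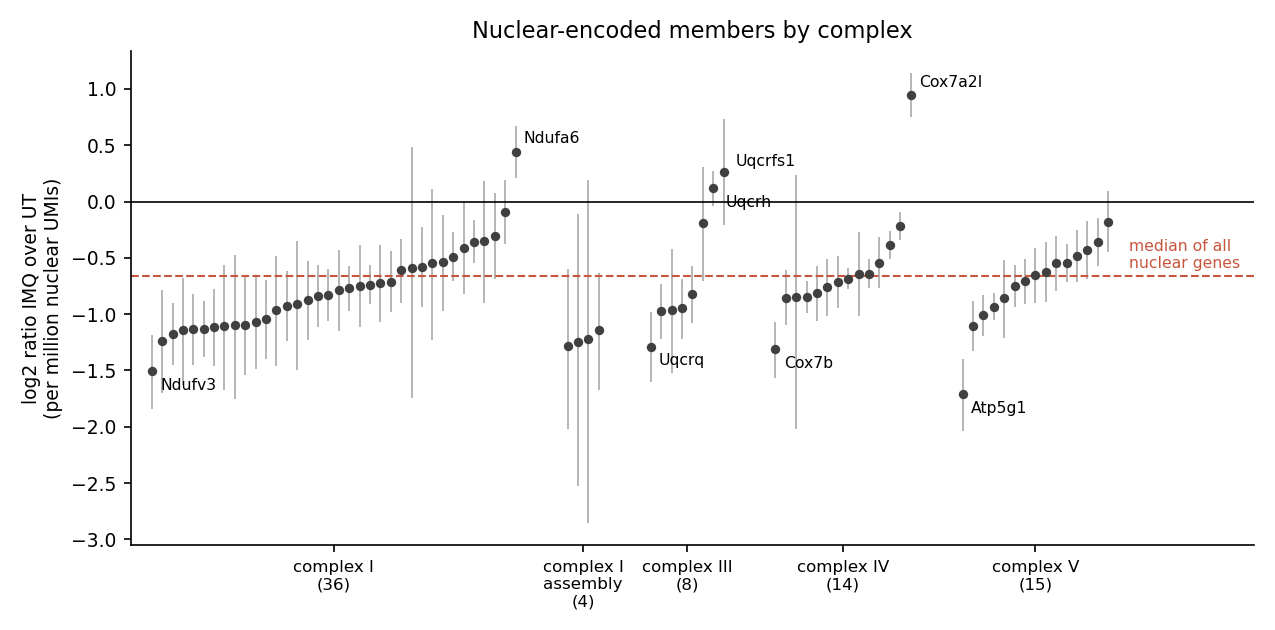
Log2 ratio IMQ over UT (nuclear CPM) of nuclear-encoded members with at least 20 UMIs over both libraries, sorted within each complex, with 95% counting intervals and the number drawn in brackets; Ndufaf4, with 3 UMIs in IMQ, is not drawn. The dashed line marks the median nuclear gene at -0.66, which runs near the middle of complexes IV and V, and Cox7a2l at 0.94 and Atp5g1 at -1.71 are the outermost points.

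Several subunits have isoforms restricted to certain tissues, and these were near the detection limit. Cox6a2 of heart and skeletal muscle gave 0 UMIs in UT and 1 in IMQ, and Cox7b2 and Cox8c, isoforms of the testis, gave 0 in both. Cox7a1, a muscle and brown fat isoform, gave 9 and 5 UMIs, Cox4i2, an isoform of lung linked to low oxygen, 9 and 6, and Cox6b2 of the testis 24 and 11. Their common counterparts Cox6a1 (406 and 197 UMIs), Cox6b1 (453 and 256) and those given above were far more often counted. Cox8b, another isoform of muscle and brown fat, gave 4 UMIs from 2 barcodes in UT and 13 UMIs from 12 barcodes in IMQ, which gave a log2 ratio of 1.98 (0.29 to 4.06). The skeletal muscle markers summed to 152 UMIs in UT and 22 in IMQ, 142 and 11 of them from Des, and of 9 adipocyte markers 8 had none in either library, with Fabp4 at 1 and 22. The part of other cells in the Cox8b counts was not tested.

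Ndufa4l2 was the exception among the restricted isoforms. This relative of Ndufa4 is induced by the hypoxia-inducible factor HIF-1, and Ndufa4, named for complex I, is now counted as a subunit of complex IV. Ndufa4l2 stood at 1074 (1018 to 1132) nuclear CPM in UT, from 1396 UMIs in 654 barcodes, and at 689 (640 to 740) in IMQ, from 737 UMIs in 506 barcodes. Its log2 ratio was -0.64 (-0.77 to -0.51), which is 0.02 relative to the median gene. Ndufa4 stood at 346 and 192, a log2 ratio of -0.85 (-1.10 to -0.61), so the intervals of both genes overlapped. It is thus among the 10 nuclear members with the most UMIs in these cells, and without it the nuclear sum had the same log2 ratio of -0.65. Ndufa4l2 overlaps Shmt2 on the other strand.

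The promoters of many nuclear members are known to carry sites for NRF1, for ETS-family factors such as GABP and for YY1. In RefSeq promoters of GRCm38.p6, running from 250 bases before the start site to 50 after it, 71 members were matched. On either strand, CGCATGCG, the core of the NRF1 site, which is its own reverse complement, was found in 11 of them, or 15.5%, and in 2.07% of 27025 genes. CCGGAAG, an ETS site, was found in 16, or 22.5%, and in 9.93% of genes, and AAGATGGC, a YY1 site core, in 10, or 14.1%, and in 3.19%. The median log2 ratio of members with the NRF1 core was -0.85 over 10 counted members and that of members without it -0.82 over 56. For the ETS letters these medians were -0.93 over 15 and -0.78 over 51. For the YY1 letters they were -0.90 over 10 and -0.82 over 56, and for any of the 3 -0.94 over 28 and -0.76 over 38. The medians with the letters were thus the lower ones each time, as a description of these members. These groups share members, so they are no separate comparisons, and the like medians over all genes are not given here. The 250 bases before the start site are shown for Atp5l, the member with the most UMIs among those with the NRF1 core there, and for Cox7a2l, which stands apart by its ratio. They run 5′ to 3′ on the - strand, and capitals mark the NRF1 core and the reverse complement of the ETS site.
Atp5l, chr9:44920743-44920992: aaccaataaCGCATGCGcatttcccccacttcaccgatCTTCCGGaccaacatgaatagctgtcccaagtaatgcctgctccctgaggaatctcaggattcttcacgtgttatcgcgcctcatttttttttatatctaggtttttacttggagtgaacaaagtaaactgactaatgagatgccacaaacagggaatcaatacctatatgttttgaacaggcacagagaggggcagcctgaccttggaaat
Cox7a2l, chr17:83514334-83514583: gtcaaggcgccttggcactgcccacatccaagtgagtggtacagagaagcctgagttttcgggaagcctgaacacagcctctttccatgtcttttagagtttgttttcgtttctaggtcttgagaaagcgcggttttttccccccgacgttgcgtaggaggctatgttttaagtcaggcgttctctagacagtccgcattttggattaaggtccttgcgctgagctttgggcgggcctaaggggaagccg
In Atp5l the NRF1 core starts at position 10 and the ETS letters at position 39 of the run, while in Cox7a2l none of these letters was found in this window, which lies inside the annotated span of the gene and thus downstream of a further start site.

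The nuclear-encoded level was compared over bins of the mitochondrial share of the barcode. In UT it was 23986 (23594 to 24383) nuclear CPM in the 513 barcodes with under 2.5% mitochondrial UMIs, 26315 (25859 to 26776) in the 532 from 2.5% to 5%, 24779 (24090 to 25482) in the 256 from 5% to 10% and 20952 (19145 to 22883) in the 46 from 10% to 20%. In IMQ it was 16024 (15520 to 16540), 16649 (16102 to 17209), 15989 (15577 to 16409) and 15105 (14616 to 15606) in the same order, over 300, 271, 472 and 343 barcodes, and 13247 (11827 to 14791) in the 39 barcodes from 20% to 40%. In both libraries the level was thus highest from 2.5% to 5% and lowest in the uppermost bin. In nuclear CPM every one of these IMQ bins lay below every one of these UT bins. The median nuclear gene was also lower in IMQ within each bin compared, as given below. The 2 UT barcodes above 20% held 4 and 2 UMIs of nuclear members.

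**Figure D4:**
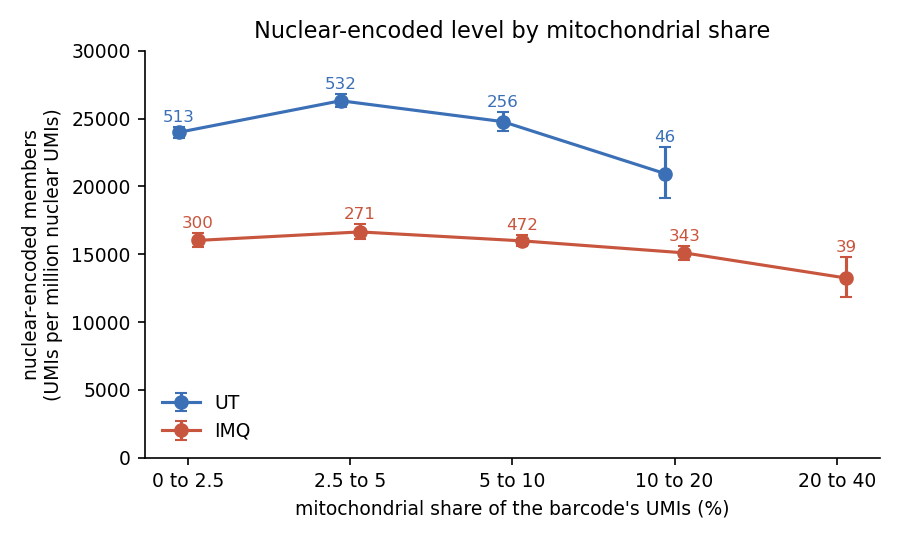
Summed nuclear-encoded members in nuclear CPM in bins of the barcodes' mitochondrial share, with 95% Poisson intervals and the number of barcodes over each point; bins with fewer than 20 barcodes are left out. The UT points lie between 20952 and 26315 and the IMQ points between 13247 and 16649, so the ranges of both lines do not overlap on this scale. On it the median nuclear gene was also lower in IMQ in the bins that both lines share.

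Between barcodes over 5% and those at or under 5%, the log2 ratio of the nuclear-encoded level was -0.043 (-0.085 to -0.00038) in UT and -0.070 (-0.11 to -0.026) in IMQ. The median of all nuclear genes in the same split was -0.18 in UT and -0.16 in IMQ, and the median single member had -0.11 and -0.12. These small ratios turned to 0.077 in UT when split at its median share and to 0.012 in IMQ over barcodes with at least 500 genes. Split at 10%, the log2 ratio was -0.29 in UT, with 48 barcodes above the split, and -0.11 in IMQ, while the median gene had -0.49 and -0.17 and the median member -0.33 and -0.19. Over single barcodes the Spearman correlation of the mitochondrial share with the share of nuclear UMIs from nuclear-encoded members was -0.083 in UT (n = 1349) and -0.074 in IMQ (n = 1425). With each barcode thinned to 300 nuclear UMIs it was -0.081 and -0.064. Both shares of a barcode come from the same molecules and the same depth, and correlations this weak in sparse counts are no finding.

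The nuclear-encoded share moved more with other parts of the transcriptome than with the mitochondrial share. Its Spearman correlation per barcode with the share of ribosomal protein genes was 0.29 in UT and 0.41 in IMQ, with the share of the fibroblast markers -0.27 and -0.43, and with that of Gm42418 -0.18 and -0.23. With the barcode's UMIs it was -0.21 and -0.19. These are shares of 1 total, in which a higher share of abundant collagen transcripts lowers all others.

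**Figure D5:**
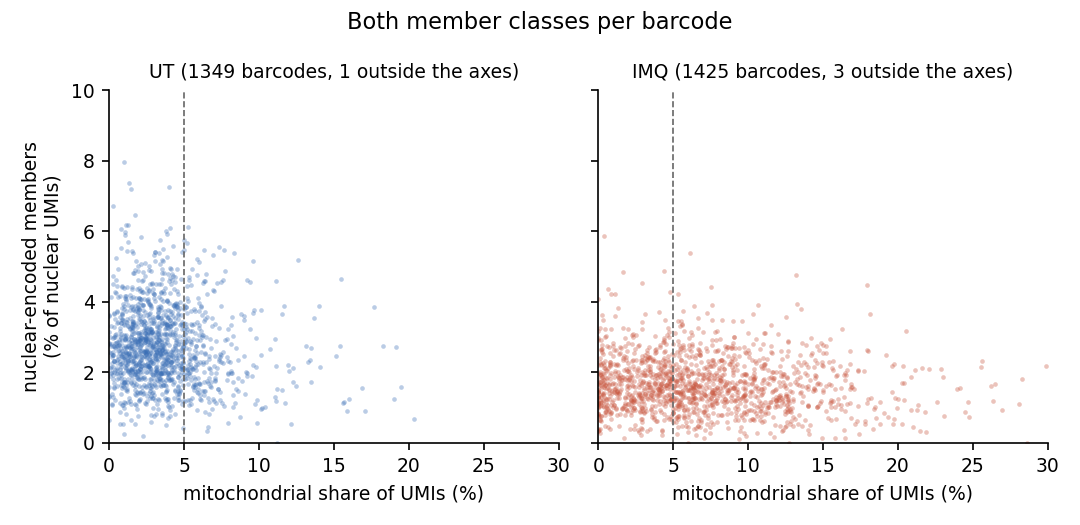
Share of nuclear UMIs from nuclear-encoded members (%) against the mitochondrial share of all UMIs (%), 1 point per kept barcode, UT left and IMQ right; the dashed line marks the study's limit of 5%, and 1 UT and 3 IMQ barcodes lie outside the axes. The UT cloud centres at 3.17% and 2.62% and the IMQ cloud at 6.23% and 1.57% (medians), and neither cloud is clearly tilted.

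With the mitochondrial share held within a bin, the nuclear-encoded level in nuclear CPM was still lower in IMQ, while over these bins TMM gave a mean log2 ratio of 0.037 and the median of ratios 0.065. The log2 ratio IMQ over UT was -0.58 (-0.63 to -0.53) under 2.5%, -0.66 (-0.71 to -0.61) from 2.5% to 5%, -0.63 (-0.69 to -0.58) from 5% to 10% and -0.47 (-0.61 to -0.33) from 10% to 20%. The median of all nuclear genes in these bins was -0.52, -0.72, -0.58 and -0.28, over 4325 genes in the first and 1052 in the last. Over the same UT bins keratinocyte markers came to 3475, 86.9, 1889 and 42.4 nuclear CPM and myeloid markers to 80.8, 3584, 2905 and 170. In IMQ no bin exceeded 33.5 for keratinocyte or 550 for myeloid markers. Over barcodes with at least 3 of the 7 fibroblast markers the log2 ratio of the nuclear members was -0.67, and the part of other cells in it was not tested. Gm42418 took 1.35% to 4.62% of nuclear UMIs over the UT bins of at least 20 barcodes and 14.4% to 17.1% over those of IMQ.

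Pathways next to the respiratory chain gave sums with log2 ratios from -0.99 to -0.52 in nuclear CPM. Complex II, succinate dehydrogenase, which feeds electrons to complex III and has no mitochondrial-encoded subunit, had 2 of 7 counted genes at least 2-fold lower, Sdhb at 121 and 47.7 and Sdhc at 73.8 and 29.9, while Sdhd stood at 83.1 and 59.8. Cycs, the electron carrier cytochrome c, stood at 127 in UT and 33.6 in IMQ, which gave a log2 ratio of -1.92 (-2.48 to -1.39). Relative to the median gene this was -1.26, and many processed pseudogenes resemble Cycs, so that shared reads are possible. Cyc1, the cytochrome c1 of complex III, stood at 73.1 and 29.9, a log2 ratio of -1.29 (-1.91 to -0.70). Cycs and Cyc1 belong to a list of 6 counted genes with a median log2 ratio of -0.61, of which 2 were at least 2-fold lower. The most counted gene of that list, Uqcc2, stood at 450 and 234, a log2 ratio of -0.95 (-1.17 to -0.73). Of the assembly factors of complex IV, 3 of 11 counted were at least 2-fold lower, with Cox17, a copper chaperone, at 137 and 67.3 and Cox20 at 118 and 42.0. The median log2 ratio of the 11 was -0.64, and Cox14 stood at 99.2 and 69.1.

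The tricarboxylic acid cycle genes, which supply NADH and succinate, had 3 of 17 at least 2-fold lower, among them citrate synthase, Cs, at 43.1 and 13.1 and Mdh2 at 141 and 47.7, whereas Pdha1 of pyruvate dehydrogenase stood at 99.2 and 97.2. The glycolysis genes had 5 of 13 at least 2-fold lower and a median log2 ratio of -0.99, with Gapdh at 546 and 273 and Aldoa at 311 and 147. Import and carrier genes had 4 of 23 at least 2-fold lower, and the ADP/ATP carrier Slc25a4 stood at 356 and 349. Mitochondrial transcription and biogenesis genes had 3 of 8 and the uncoupling and antioxidant genes 1 of 6 at least 2-fold lower. In mitochondrial ribosomal protein genes it was 16 of 70 with a sum at -0.64, and in cytosolic ribosomal protein genes 5 of 93 with a sum at -0.07. Beside the 30.3% of all nuclear genes at least 2-fold lower, the cytosolic ribosomal list had 5.38% and the other lists of these 2 paragraphs between 16.7% and 38.5%.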

How the data were processed

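Single-cell RNA sequencing was carried out on 1 UT and 1 IMQ library of sorted dermal cells. The authors deposited matrices of raw UMI counts from Cell Ranger, version 3.0.0 for UT and 3.1.0 for IMQ per the file headers, with mm10 and CASAVA named in the submitters' processing notes and no normalisation. Both files list the same 31053 genes. The members and all lists were chosen with earlier results of these data known. Barcodes with 200 to 5000 detected genes were kept, giving 1345263 UT and 1153889 IMQ UMIs, with no doublet step beyond the sorting gate. UMIs were summed per library over barcodes and scaled to a total of 1000000 over all genes (CPM) or over nuclear genes (nuclear CPM). Sums have exact Poisson, shares exact binomial (Clopper-Pearson) and ratios exact conditional binomial intervals at 95% (scipy 1.17.1, numpy 2.4.6, pandas 2.3.3, Python 3.11.15), which were checked on simulated counts. No test was run, since neither group has a second library. A gene counted as past 2-fold on log2 ratios with 1 CPM added and at least 20 UMIs over both libraries. A ratio of a single gene has nothing added, and none is given at 3 or fewer UMIs in either library.

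Members named are all mitochondrial genes, the 10 nuclear members with the most UMIs, the 5 highest and 5 lowest ratios among those with at least 50 UMIs, and restricted isoforms with their counterparts. Of other lists, members with the most UMIs were named, and others after their values were seen. Positions come from GENCODE M21, in which 30934 of the genes were found, and promoters from RefSeq. Whether counting used strand is not given in the sources used here. Alternatives covered limits on mitochondrial share and genes, Scrublet (scanpy 1.11.5), other totals, TMM and median-of-ratios scaling, thinning, filters, an added constant and bins.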

Additional observations from a re-analysis of the deposited data

Results flagged for a closer look

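In barcodes left out of the comparisons for having fewer than 200 genes, mitochondrial-encoded members took 13.1% (13.04% to 13.16%) of 1155477 UMIs in IMQ. The same barcodes of the untreated library gave 8.46% (8.13% to 8.80%) of 27157 UMIs. A signal above the untreated level in data outside the main comparison drew attention here. Nuclear-encoded members in these barcodes stood at 19630 nuclear CPM in UT and 10384 in IMQ.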

How the results depend on the processing

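No paired analysis was possible because each group has 1 library. Log2 ratios are IMQ over UT. The mitochondrial-encoded sum was 1.11, and it was -0.013 with at most 5% mitochondrial UMIs, 0.58 with at most 10%, 0.95 with at least 500 genes, 1.60 over every barcode, 1.17 per nuclear UMI, 1.46 without ribosomal protein genes, Gm42418 and AY036118, 1.79 with TMM, 1.83 with the median of ratios and 0.99 thinned to 400 UMIs. A limit on the mitochondrial share removes barcodes by the measured value itself, and at 5% mt-Nd2 stood at -0.050. The nuclear-encoded sum was -0.65, and in the order of these settings, without the limit of 10%, it was -0.62, -0.60, -0.86, -0.71 (per UMI of all genes), -0.37, -0.026, 0.0017 and -0.72. The median nuclear member was -0.77, and in the order of all these settings -0.68, -0.74, -0.59, -1.03, -0.83, -0.49, -0.15, -0.12 and -0.85. It was -0.75 without assembly factors and restricted isoforms, -0.12 relative to the median gene and -0.72 with 10 CPM added. Set against the median gene of the same setting, the median member lay furthest below it with at least 500 genes, at -0.32. With 10 CPM added it lay at -0.25 and after thinning at -0.21.

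The count of nuclear members at least 2-fold lower was 22, where 30.3% of all nuclear genes were. It was 14 with at least 500 genes (21.4% of all), 41 over every barcode (42.7%), 5 without ribosomal protein genes, Gm42418 and AY036118 (19.8%), 11 with 10 CPM added (15.1%), and 2 with TMM (10.6%), with the median of ratios (10.3%) or relative to the median gene (9.2%). The count at least 2-fold higher was 0, where 2.4% of all nuclear genes were. It was 1 over every barcode (1.64% of all), without ribosomal protein genes (4.18%), after thinning (3.18%) and with a minimum of 10 UMIs (3.1%). It was 2 with TMM (8.03%), with the median of ratios (8.31%) or relative to the median gene (8.97%). Within bins the mean log2 ratio of the nuclear sum was -0.59, and it was -0.67 with at least 500 genes, -0.78 over every barcode, -0.31 without ribosomal protein genes, 0.037 with TMM, 0.065 with the median of ratios and -0.64 after thinning.

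The log2 ratio of the nuclear-encoded level between barcodes over and at or under 5% was -0.043 in UT, and it was -0.12 per UMI of all genes, 0.0017 without ribosomal protein genes, -0.16 after thinning, -0.29 split at 10% and 0.077 split at the median share. In IMQ it was -0.070, and it was 0.012 with at least 500 genes, -0.12 over every barcode, -0.19 per UMI of all genes, -0.016 without ribosomal protein genes, -0.021 after thinning and -0.11 split at 10%. The cause of these shifts was not tested beyond what each setting removes. Over all these comparisons 53 values stayed within their interval or within 1.5 times, 52 moved further and 7 changed sign. Of named genes, 5 of 13 mitochondrial and 16 of 27 nuclear ones kept their sign in every alternative run. The filter on fibroblast markers was chosen after seeing the data. Depth limits members with few UMIs, and 1 library per group leaves variation between mice unmeasured.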

Other observations

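Genes of the dissociation stress response, which rises when tissue is digested to single cells, were lower in IMQ, with a sum of 3968 nuclear CPM in UT and 1858 in IMQ and 8 of 12 at least 2-fold lower, where 30.3% of all nuclear genes were. Relative to the median gene the sum was -0.44 on the log2 scale. On that scale 4 of the 12 were at least 2-fold lower, where 9.2% of all nuclear genes were. Hspa1a, a heat shock protein, stood at 327 and 37.4 and Atf3 at 138 and 26.2, while Dusp1 stood at 170 and 205. In UT these genes were at 5999 in barcodes under 2.5% mitochondrial UMIs, at 2068 from 2.5% to 5%, at 2551 from 5% to 10% and at 3732 from 10% to 20%, and in IMQ they went from 3276 under 2.5% to 838 from 20% to 40%. The nuclear transcript Malat1 took 2.30%, 0.478%, 0.217% and 0.356% of nuclear UMIs in the same UT bins, and in IMQ 0.703% under 2.5% and 0.025% from 20% to 40%. Both measures were thus highest in the bin under 2.5% in each library, among bins of at least 20 barcodes, and their part in the values by bin was not tested.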
